A study of Mus musculus with 96 samples.

Results

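The 9 genes described here encode signals that the study proposes to pass from hepatocytes to liver macrophages, and receptors for such signals. The ligands are Bmp5, Inhba, Pdgfd and Tnfsf12, and the receptors Bmpr1a, Bmpr2, Acvr2a, Pdgfrb and Tnfrsf12a. They were taken by name from the 25095 gene symbols of the tables, each gene being represented by the transcript that had the highest mean level, and all 9 were measured in every table. The study had picked the ligands with a prediction of cell communication made from these same libraries. Among the receptors its text names Pdgfrb and Bmpr1a. The listing of these genes is therefore not independent evidence of how they behave.

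Bone morphogenetic proteins and activins belong to the TGF-β superfamily. A ligand dimer joins type I receptors, such as the one Bmpr1a encodes, with type II receptors, such as those of Bmpr2 and Acvr2a, and the receptor complex phosphorylates SMAD proteins that enter the nucleus. PDGF-D is a growth factor that activates the receptor tyrosine kinase PDGFRβ, which in liver is best known from stellate cells, the perivascular cells that turn into collagen-producing cells in fibrosis. TWEAK, the product of Tnfsf12, is a cytokine of the TNF family, and its receptor FN14, the product of Tnfrsf12a, is low in resting liver and known to rise in injury.

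The series held 96 RNA sequencing libraries, split evenly between hepatocytes (48) and macrophages of the liver (48). The mice were adult C57BL/6J males that had eaten an obesogenic high fat, high sucrose diet over 4 weeks. Livers were taken at zeitgeber time (ZT, hours after lights on) 4, 10, 16 or 22, with 3 libraries per genotype, cell type and time. Controls carried floxed alleles and received an adeno-associated virus with GFP, while the other genotypes received Cre from the hepatocyte-specific TBG promoter: RevDKO (floxed Nr1d1 and Nr1d2, which encode REV-ERBα and REV-ERBβ, repressors in the circadian clock), RevScapTKO (these and Scap, the escort of SREBP lipid regulators) and ScapKO (Scap alone). The deletion was thus aimed at hepatocytes alone, and the macrophages shared the diet and the virus but not the deletion. The study's methods speak of biological replicates, and the labels do not tie the 3 libraries of a group to single animals, so p-values measure the spread between these libraries. Titles were followed for the ScapKO hepatocyte libraries, whose cell type field names macrophages. Their marker levels, given with the ScapKO results, were those of hepatocytes.

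Values are RPKTM, an RPKM multiplied by 10, quantile normalized by the authors within each of 4 tables: for each cell type, 36 libraries of Control, RevDKO and RevScapTKO in a shared table and 12 of ScapKO in another. Depth is unknown, and levels are compared within a table only. As a check of the labels, hepatocyte Scap was lower in RevScapTKO (209 ± 63.5 RPKTM) than in RevDKO (536 ± 109, SD, n = 12 each). Nr1d1 was not lower in the libraries labelled RevDKO (138 ± 108) or RevScapTKO (140 ± 62.9) than in Control (90.7 ± 119). Neither was Nr1d2 (312 ± 116 and 353 ± 62.5 against 228 ± 141). By the limma test described below, both were called higher in RevScapTKO than in Control. Of the 3 targeted genes, 1 was called higher and 0 lower in RevDKO than in Control. The study, by contrast, reports strongly reduced levels of both REV-ERB genes in hepatocytes. This mismatch is a limit on every direction drawn from the RevDKO and RevScapTKO labels. Albumin-type hepatocyte markers dominated the hepatocyte table, with summed levels of 12 markers between 392600 and 990850 RPKTM against 262 to 6690 for 12 macrophage markers. In the macrophage table the 12 hepatocyte markers still summed to between 30379 and 1619940 RPKTM against 3593 to 42103 for the macrophage markers, so hepatocyte RNA was present in every macrophage library. In 3 macrophage libraries (Control at ZT16 replicate 1, Control at ZT22 replicate 1 and RevScapTKO at ZT22 replicate 3) the hepatocyte sum exceeded 500000, far above the remaining 33, and results were also computed without them.

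Promoters show how differently built these genes are. A RefSeq promoter was used for 7 of the 9 genes, and 4 are printed as the 250 bases before the transcript start, 5′ to 3′ on the gene's own strand, in build GRCm38.p6 rather than mm9. Bmp5 and Tnfrsf12a are shown because they differed between genotypes below, and Inhba and Bmpr1a because their values by time of day are given at length. Capitals mark TATAAA, a core promoter element, or GGGCGG, a site type bound by SP1-like factors, on either strand. The windows are chr9:75775115-75775364 (plus) for Bmp5, chr13:16011601-16011850 (plus) for Inhba, chr14:34502547-34502796 (minus) for Bmpr1a and chr17:23677450-23677699 (minus) for Tnfrsf12a.
Bmp5: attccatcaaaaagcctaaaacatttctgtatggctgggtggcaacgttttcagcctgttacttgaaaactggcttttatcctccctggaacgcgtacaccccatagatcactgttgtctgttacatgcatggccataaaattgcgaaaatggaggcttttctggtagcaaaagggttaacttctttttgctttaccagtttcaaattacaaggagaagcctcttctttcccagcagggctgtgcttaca
Inhba: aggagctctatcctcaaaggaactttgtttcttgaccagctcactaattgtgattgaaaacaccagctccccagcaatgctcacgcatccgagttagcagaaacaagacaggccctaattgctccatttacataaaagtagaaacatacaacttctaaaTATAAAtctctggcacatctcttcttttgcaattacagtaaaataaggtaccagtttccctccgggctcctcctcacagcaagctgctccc
Bmpr1a: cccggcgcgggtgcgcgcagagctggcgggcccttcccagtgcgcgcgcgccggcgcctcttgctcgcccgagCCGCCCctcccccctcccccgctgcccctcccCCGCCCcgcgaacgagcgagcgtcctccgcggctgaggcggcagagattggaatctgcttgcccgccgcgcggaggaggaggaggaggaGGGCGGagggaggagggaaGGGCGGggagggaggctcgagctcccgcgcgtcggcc
Tnfrsf12a: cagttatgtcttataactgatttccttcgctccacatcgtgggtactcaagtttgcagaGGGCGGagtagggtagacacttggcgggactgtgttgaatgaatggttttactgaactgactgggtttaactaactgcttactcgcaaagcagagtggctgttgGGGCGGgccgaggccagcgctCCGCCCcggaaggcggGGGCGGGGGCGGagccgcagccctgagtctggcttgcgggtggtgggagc

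The ligand promoters were poorer in GC than the receptor promoters. Bmp5 had 42.8% GC and 4 CpG, Inhba 43.2% and 3, and Pdgfd 53.6% and 3, against a median of 52.4% and 6 CpG over all 32851 promoters. Bmpr1a had 78.8% GC and 36 CpG, Bmpr2 64% and 22, Acvr2a 82% and 49, and Tnfrsf12a 58.8% and 15. TATAAA, held by 12.4% of all promoters, was in those of Inhba and Pdgfd, while GGGCGG, held by 32.7%, was in all 4 receptor promoters, with 4 matches in Bmpr1a, 1 in Bmpr2, 2 in Acvr2a and 5 in Tnfrsf12a, some of them adjoining. Motifs of factors that these genotypes concern were searched on both strands too: AGGTCA (a REV-ERB half-site, 14% of promoters), CACGTG (an E-box, 6.02%), TCACNCCAC (a sterol regulatory element core, 1.05%) and TGANTCA (an AP-1 site, 6.75%). None of these letters occurred in the 7 windows, which says nothing of sites elsewhere.

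Positions in mm9, the build of the files, place the genes as follows. Bmp5 spans chr9:75623172-75748123 on the plus strand, Inhba chr13:16103684-16123442 (plus), Pdgfd chr9:6168486-6378845 (plus) and Tnfsf12 chr11:69499742-69509600 (minus). Among the receptors, Bmpr1a spans chr14:35224254-35315732 (minus), Bmpr2 chr1:59821123-59934925 (plus), Acvr2a chr2:48669629-48758784 (plus), Pdgfrb chr18:61204804-61244721 (plus) and Tnfrsf12a chr17:23812412-23814416 (minus). Tnfsf12 is the least certain measurement, because a same-strand transcript, BC096441, covers all 9859 bp of it and the opposite-strand 2010012P19Rik covers 4902 bp. Opposite-strand genes overlap Bmp5 by 2474 bp, Pdgfd by 1520 bp, Bmpr1a by 832 bp, Acvr2a by 441 bp and Tnfrsf12a by 80 bp, and whether counting used the strand was not stated.

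In Control hepatocytes the receptors of the BMP and activin group had the highest means of the 9 genes. Bmpr2 measured 463 ± 48.0 RPKTM (SD over the 12 libraries of 4 time points), the 93rd percentile of genes kept, followed by Acvr2a and Bmpr1a (174 ± 34.2 and 167 ± 21.8, not apart beyond their spread). Inhba, the activin βA subunit, was the most abundant ligand at 83.3 ± 36.5, its highest library (156) reaching the levels of Acvr2a and Bmpr1a, and Bmp5 (26.5 ± 13) and Pdgfrb (23.4 ± 9.17) came next, again overlapping. Tnfsf12 (10.5 ± 3.56), Tnfrsf12a (9.47 ± 4.07) and Pdgfd (5.45 ± 2.31) were the lowest. In Control macrophages Bmpr2 was again highest at 262 ± 83.5, and Bmpr1a (36.8 ± 6.76), Acvr2a (32.6 ± 11.8) and Pdgfrb (28.7 ± 15.8) overlapped. The ligands there were Bmp5 (17.5 ± 8.64), Tnfsf12 (13.7 ± 4.55), Inhba (11.8 ± 8.47) and Pdgfd (8.55 ± 2.72), and Tnfrsf12a, at 3.84 ± 3.47, was the lowest of all. RPKTM is scaled per length, so these levels can be set beside each other within a table. Hepatocyte RNA in the macrophage libraries stands beside each of these levels, and its part in them was not tested. Endothelial markers were present there too, 10 of them summing to between 1977 and 6460 RPKTM in Control, and their part was not tested.

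Bmp5, a BMP ligand, was higher in RevScapTKO hepatocytes than in either other genotype. At ZT4 the Control libraries measured 16.2, 12.4 and 17.3 RPKTM, those of RevDKO 13.6, 22.9 and 13.4 and those of RevScapTKO 33.0, 41.5 and 51.5. At ZT10 the values were 23.3, 19.8 and 20.7 in Control, 28.9, 18.8 and 24.9 in RevDKO and 39.1, 37.2 and 44.7 in RevScapTKO. At both daytime points all 3 RevScapTKO libraries therefore lay above all 6 others (non-overlap with RevDKO was seen for 24.1% of all genes at ZT4 and 16.3% at ZT10, and with Control for 25.5% and 28%). At ZT16 the Control libraries measured 15.5, 37.9 and 29.2, RevDKO 34.4, 22.3 and 50.3, and RevScapTKO 45.3, 49.5 and 75.7. At ZT22 they measured 31.1, 36.3 and 58.3, then 47.0, 43.5 and 83.4, then 80.8, 33.7 and 59.5. RevScapTKO thus overlapped RevDKO at ZT16 and both genotypes at ZT22, where Control and RevDKO were at their highest. Mean levels over the day were tested with limma, a linear model fitted across all genes, on log2(RPKTM + 1), with p adjusted over all genes. Bmp5 rose by 0.68 log2 units from RevDKO to RevScapTKO (SE 0.17, 95% interval 0.33 to 1.02, limma adjusted p 0.00364) and was 0.94 above Control (SE 0.17, adjusted p 6.82e-05). RevDKO minus Control was 0.27 (SE 0.17, adjusted p 0.450). In the comparison with RevDKO 12 of 12 macrophage and 9 of 13 stellate markers were higher too, and with the stellate marker score as a covariate the difference was 0.08 (adjusted p 0.930). In bulk libraries such as these, a change in the number of cells of a type and a change in RNA per cell cannot be told apart.

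**Figure D1:**
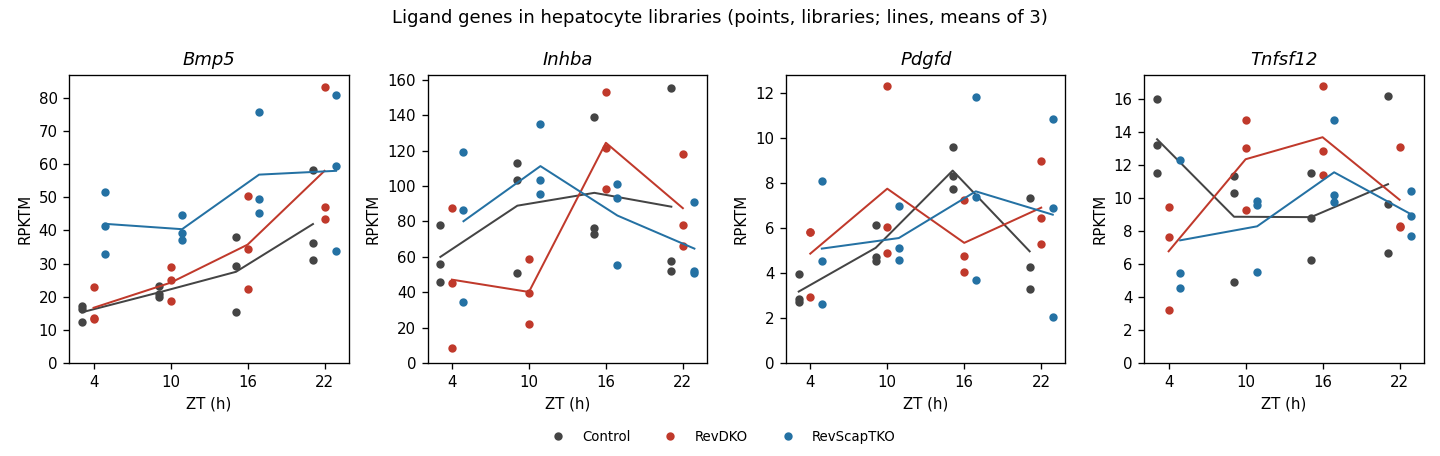
Levels of the 4 ligand genes in hepatocytes (RPKTM) by zeitgeber time (h), with a point for each library, coloured by genotype (Control, RevDKO, RevScapTKO), and lines through the means of 3 libraries. For Bmp5 the RevScapTKO points at ZT4 and ZT10, from 33.0 to 51.5, lie above all others, while the Inhba points of the genotypes intermingle at most times.

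Inhba showed no difference in mean level that passed the test in hepatocytes. Its 12 libraries ran from 45.9 over a median of 74.8 to 156 RPKTM in Control, from 8.18 over 72.1 to 153 in RevDKO and from 34.4 over 92.1 to 135 in RevScapTKO, so the ranges over the day overlapped. At ZT10 the values were 50.6, 103 and 113 in Control, 39.6, 22.1 and 58.7 in RevDKO and 103, 95.7 and 135 in RevScapTKO. All 3 RevScapTKO libraries lay above those of RevDKO at that time (16.3% of genes did not overlap there). At ZT16 they were 76.4, 139 and 73.2 in Control, 153, 98.5 and 122 in RevDKO and 101, 93.5 and 55.3 in RevScapTKO, and the test of changed rhythm given below did not pass. RevDKO minus Control was -0.36 log2 units (SE 0.27, limma adjusted p 0.555) and RevScapTKO minus RevDKO 0.40 (SE 0.27, adjusted p 0.282, 95% interval -0.15 to 0.95).

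Pdgfd, the PDGF ligand, was near the floor of measurement in hepatocytes, above 5 RPKTM in 20 of 36 libraries. Control values were 2.85, 3.96 and 2.71 at ZT4, 4.71, 4.53 and 6.12 at ZT10, 9.61, 8.31 and 7.76 at ZT16, and 4.27, 7.33 and 3.30 at ZT22. The ZT16 libraries were the 3 highest of Control, and all lay above those of RevDKO at that time, which measured 4.05, 4.74 and 7.24 (14.6% of genes did not overlap there). Tnfsf12, the TWEAK ligand, measured 11.5, 13.2 and 16 RPKTM at ZT4 in Control and 9.43, 7.61 and 3.23 in RevDKO, again without overlap (12.2% of genes at ZT4). Over the day neither ligand passed the test: the log2 difference of RevDKO from Control was 0.18 for Pdgfd (SE 0.22, limma adjusted p 0.754) and 0.00 for Tnfsf12 (95% interval -0.38 to 0.39), and that of RevScapTKO from RevDKO was -0.06 and -0.19 (95% intervals -0.50 to 0.39 and -0.57 to 0.19).

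Among the receptors in macrophages, Tnfrsf12a alone passed the test of mean level. In Control it measured 2.71, 3.48 and 1.90 RPKTM at ZT4, 1.41, 2.58 and 2.99 at ZT10, 1.60, 2.48 and 3.31 at ZT16, and 2.54, 13.8 and 7.34 at ZT22. RevDKO gave 3.12, 0.378 and 0.729 at ZT4, 1.22, 3.14 and 0.498 at ZT10, 5.29, 13 and 5.09 at ZT16, and 4.41, 5.16 and 3.73 at ZT22. RevScapTKO gave 7.80, 7.01 and 13.5 at ZT4, 4.23, 11.7 and 8.28 at ZT10, 2.48, 9.10 and 14.9 at ZT16, and 10.9, 9.65 and 6.53 at ZT22. At ZT4 and ZT10 all 3 RevScapTKO libraries lay above all 6 others, and at ZT22 above those of RevDKO (background 11.7%, 9.91% and 14.2% for RevDKO, and 12.4% and 13.7% for Control at ZT4 and ZT10). Averaged over the day, Tnfrsf12a rose by 1.24 log2 units from RevDKO (SE 0.30, 95% interval 0.63 to 1.84, limma adjusted p 0.0135) and was 1.13 above Control (SE 0.30, adjusted p 0.0237). It exceeded 5 RPKTM in only 16 of the 36 libraries, so its precision is low. The call against RevDKO remained whichever single library was left out (36 of 36, log2 1.12 to 1.39) and without the 3 hepatocyte-rich libraries (1.3, adjusted p 0.0101). The call against Control was lost without those 3 libraries (0.99, adjusted p 0.0919) and when any of 5 single libraries was left out: Control at ZT10 replicate 1 (adjusted p 0.0507), and RevScapTKO at ZT4 replicate 3 (0.0588), at ZT10 replicate 2 (0.0557), at ZT16 replicate 2 (0.0501) or at ZT16 replicate 3 (0.0637).

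**Figure D2:**
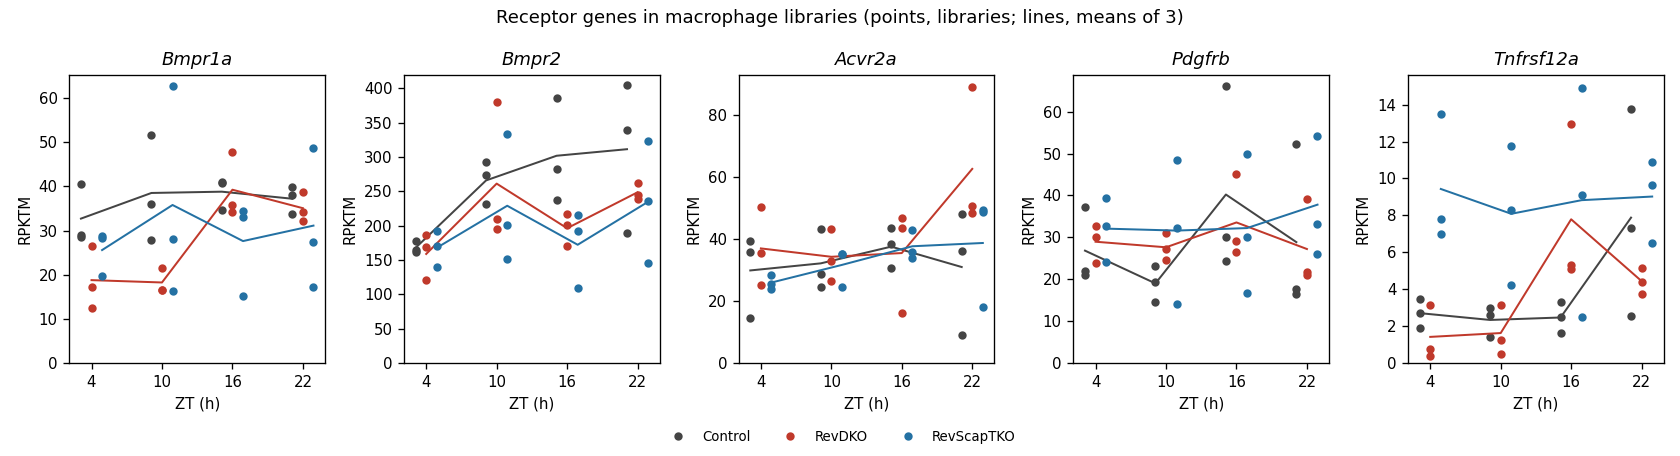
Levels of the 5 receptor genes in macrophages (RPKTM) by zeitgeber time (h), with a point for each library, coloured by genotype (Control, RevDKO, RevScapTKO), and lines through the means of 3 libraries. Tnfrsf12a in RevScapTKO lies above the other genotypes at ZT4 and ZT10, and Bmpr1a in RevDKO, between 12.5 and 26.5 RPKTM at these times, lies below Control.

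Bmpr1a, the type I receptor for BMPs, was low by day in RevDKO macrophages. At ZT4 it measured 17.3, 12.5 and 26.5 RPKTM in RevDKO and 29.0, 40.6 and 28.5 in Control, and at ZT10 21.6, 16.6 and 16.5 against 51.7, 27.9 and 36, without overlap at either time (background 7.06% and 18.5%). At ZT16 (35.9, 47.8 and 34.2 against 40.8, 40.9 and 34.7) and ZT22 (32.1, 38.8 and 34.3 against 33.7, 38.2 and 39.8) the genotypes overlapped. The mean difference of -0.47 log2 units (SE 0.21, unadjusted limma p 0.0274, adjusted p 0.303) did not pass the test over all genes. The RevScapTKO libraries spread widely, from 15.3 over a median of 28.3 to 62.8.

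Bmpr2, the type II BMP receptor, was the most abundant member in macrophages, with medians of 256 RPKTM in Control (161 to 405), 205 in RevDKO (120 to 380) and 192 in RevScapTKO (109 to 334). At ZT16 Control measured 238, 386 and 282, above both RevDKO (217, 171 and 201; background 15.8%) and RevScapTKO (215, 192 and 109; background 18.1%). The differences from Control over the day were -0.26 (limma adjusted p 0.478) and -0.39 (adjusted p 0.217). Over the 36 macrophage libraries Bmpr2 followed the endothelial marker score (mean log2 of RPKTM + 1 over 10 markers) with a Pearson r of 0.74. The r of Bmpr2 with the macrophage marker score was 0.30. The endothelial score averaged 7.88 in Control, 7.82 in RevDKO and 7.52 in RevScapTKO, and its part in the Bmpr2 values was not tested. Acvr2a, the activin type II receptor, had medians of 35.9, 43.4 and 34.5 in the same order of genotypes, and at ZT22 the RevDKO libraries (50.6, 89.1 and 48.3) lay above those of Control (36, 8.86 and 48.0; background 8.76%). Its mean difference was 0.37 (SE 0.24, adjusted p 0.478). Pdgfrb had medians of 22.6, 28.2 and 32.5 with ranges of 14.5 to 66.2, 20.9 to 45.0 and 14.1 to 54.2, and its differences of 0.14, 0.12 and 0.26 (SE 0.24 each) did not pass.

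Read across both cell types, few of the 9 genes passed the test of mean level. In hepatocytes 0 of 9 passed for RevDKO minus Control, where limma called 4.43% of all genes (2% higher, 2.43% lower) and 0 of 9 had an unadjusted p under 0.05. For RevScapTKO minus RevDKO 3 of 9 passed, all higher (26.2% of all genes passed, 13.5% higher and 12.7% lower), and for RevScapTKO minus Control the same 3, all higher (35.9%, with 17.3% higher and 18.7% lower). A share of 3 in 9 is thus close to the either-direction shares of the whole table. It lies above the shares called higher (13.5% and 17.3%), but it rests on 9 genes and this gap was not tested. In macrophages the counts were 0 of 9 (background 0.574%, and 1 of 9, Bmpr1a, at an unadjusted p under 0.05), 1 of 9 (3%, with 1.23% higher and 1.78% lower) and 1 of 9 (3.76%, with 2.38% higher and 1.38% lower). The medians of the 9 differences were 0.10, 0.04 and 0.11 log2 units in hepatocytes, beside -0.01, -0.03 and -0.04 over all genes tested, and 0.14, 0.09 and 0.10 in macrophages, beside -0.04, 0.04 and -0.04. Comparisons here share libraries: the RevDKO group enters the first 2 with opposite signs and Control the first and the last.

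**Figure D3:**
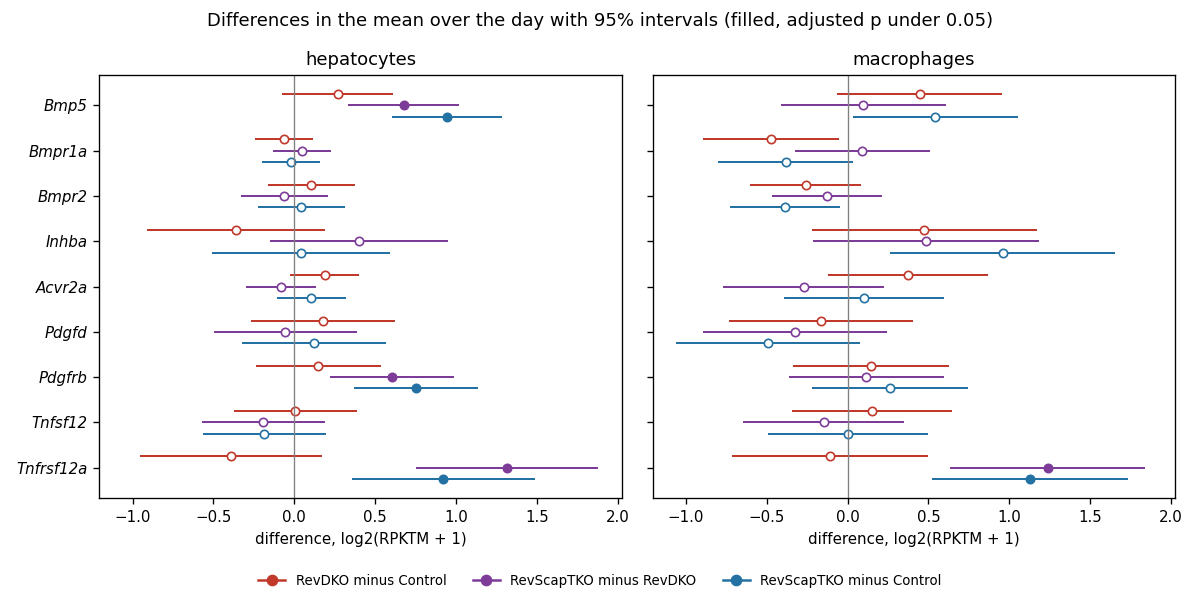
Differences in mean level over the day (log2 of RPKTM + 1) of the 9 genes in hepatocytes and macrophages in the 3 pairs of genotypes, as points with 95% intervals, filled where the limma adjusted p is under 0.05. The filled points are Bmp5, Pdgfrb and Tnfrsf12a in hepatocytes and Tnfrsf12a in macrophages, all to the right of 0 and all in comparisons of RevScapTKO.

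The other hepatocyte calls were receptors. Pdgfrb ran from 12 over a median of 22.5 to 42.0 RPKTM in Control, from 13.1 over 22.5 to 47.5 in RevDKO and from 18 over 37.0 to 75.8 in RevScapTKO. The ranges overlapped, but RevScapTKO lay above both other genotypes at ZT10 (26, 64.5 and 25.7, against 22.7, 15.0 and 15.5 in RevDKO and 22.3, 17.2 and 20.2 in Control; background 16.3% and 28%). At ZT22 RevScapTKO (54.8, 51.5 and 75.8) lay above RevDKO (46.5, 47.5 and 46.2), and that above Control (22.8, 32.1 and 42.0; background 22.7% and 16.3%). Pdgfrb rose by 0.60 log2 units from RevDKO (SE 0.19, limma adjusted p 0.0180) and was 0.75 above Control (SE 0.19, adjusted p 0.00251). Tnfrsf12a ran from 4.26 over 8.82 to 17.8 in Control, from 0.361 over 6.00 to 16.2 in RevDKO and from 5.59 over 18 to 40.5 in RevScapTKO. At ZT10 it measured 16.4, 29.5 and 25.8 in RevScapTKO against 5.60, 16.2 and 4.89 in RevDKO, and at ZT22 15.4, 19.6 and 21.2 against 5.77, 9.26 and 11.0, without overlap at either time (background 16.3% and 22.7%). Its rise of 1.3 log2 units from RevDKO (SE 0.28, adjusted p 0.000768) was the largest among the 9 genes, and it stood 0.92 above Control (SE 0.28, adjusted p 0.0100). All 3 hepatocyte calls, in both comparisons, remained with any single library left out (36 of 36 each).

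Markers of other liver cells moved with these calls. In the hepatocyte table all 12 macrophage markers, 9 of 13 stellate markers and 6 of 10 endothelial markers were higher in RevScapTKO than in RevDKO, with medians of 1.04, 0.71 and 0.48 log2 units, and against Control 12, 9 and 8 were higher. Summed macrophage markers ranged from 262 to 3445 RPKTM in Control, 455 to 2644 in RevDKO and 1034 to 6690 in RevScapTKO, and stellate markers from 477 to 2688, 947 to 2455 and 1946 to 4385. No marker of these lists was at 0 in every library. Over the 36 hepatocyte libraries, which share normalization and genotype differences, Bmp5 followed the stellate marker score with a Pearson r of 0.89, the endothelial score with 0.88 and the macrophage score with 0.76, against -0.06 for the hepatocyte score. Pdgfrb, itself known from stellate cells, gave 0.88, 0.83 and 0.81, whereas Tnfrsf12a gave 0.50, 0.39 and 0.36.

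With the stellate score as a covariate the RevScapTKO minus RevDKO difference was 0.08 log2 units for Bmp5 (limma adjusted p 0.930), -0.20 for Pdgfrb (adjusted p 0.751) and 0.92 for Tnfrsf12a (adjusted p 0.292), and none of the 3 passed. With the macrophage score it was 0.49 (adjusted p 0.371), -0.000431 (adjusted p 0.9998) and 1.3 (adjusted p 0.0603). Against Control the stellate score left 0.15, -0.31 and 0.40 and the macrophage score 0.75, 0.10 and 0.93 for these genes, none past the threshold (adjusted p 0.0605 to 0.873). The value of Tnfrsf12a thus moved little with the macrophage score, while that of Pdgfrb was near or below 0 with either. A score that itself differs between genotypes also takes up part of any true genotype difference, and which cells carried these transcripts was not tested.

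**Figure D4:**
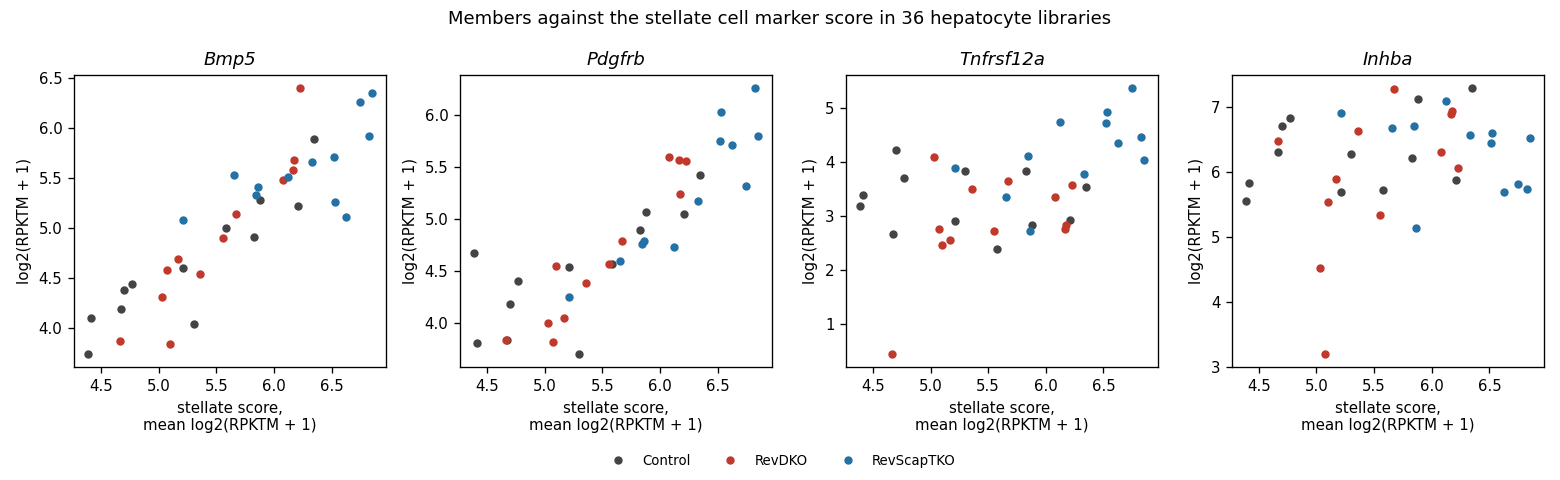
Levels of Bmp5, Pdgfrb, Tnfrsf12a and Inhba (log2 of RPKTM + 1) against the stellate marker score (mean log2 of RPKTM + 1 over 13 markers) in the 36 hepatocyte libraries, a point each, coloured by genotype. Bmp5 (r = 0.89) and Pdgfrb (r = 0.88) rise with the score, and Tnfrsf12a (r = 0.50) scatters more widely.

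In macrophages fewer markers passed the test. None of the 12 macrophage markers did in any comparison, with medians of -0.54 log2 units for RevDKO minus Control, 0.03 for RevScapTKO minus RevDKO and -0.55 for RevScapTKO minus Control. Of the other lists, 2 of 13 stellate markers were higher in RevScapTKO than in RevDKO and 3 than in Control, and of 12 hepatocyte markers 1 was higher and 3 lower than in RevDKO and 2 lower than in Control. Tnfrsf12a remained past the threshold with the hepatocyte score as a covariate, at 1.3 above RevDKO (limma adjusted p 0.0161) and 1.2 above Control (adjusted p 0.0142). With the stellate score it was 1.32 above RevDKO (adjusted p 0.00985) and 1.36 above Control (adjusted p 0.0514). Its r over 36 libraries was 0.009 with the hepatocyte score and -0.46 with the macrophage score. The macrophage score was not used as a covariate in macrophages.

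The ligand genes were also read in the macrophage libraries, in which hepatocyte markers were present as given above. Inhba ranged from 0.26 over a median of 9.79 to 32.5 RPKTM in Control, from 7.38 over 12.6 to 27.3 in RevDKO and from 8.42 over 18.2 to 46.9 in RevScapTKO. It was 0.96 log2 units above Control in RevScapTKO (SE 0.34, unadjusted limma p 0.00859, adjusted p 0.119) and not past the threshold, though it passed with the hepatocyte score as a covariate (1.25, adjusted p 0.0190) and without Control at ZT22 replicate 3 (1.14, adjusted p 0.0324). Bmp5 had medians of 15.3, 20.1 and 23.4 (RevScapTKO minus Control 0.54, adjusted p 0.253). Pdgfd had medians of 7.98, 6.85 and 6.87, and its 2 highest values were RevDKO libraries at ZT22 (31.3 and 18.5), where the third measured 10.8. Tnfsf12 had medians of 15.3, 15.9 and 13, with differences of 0.15 and -0.15 (SE 0.24 each). In hepatocytes the BMP and activin receptors were close to level: differences of Bmpr1a, Bmpr2 and Acvr2a over the 3 comparisons lay between -0.08 and 0.19, with 95% intervals within -0.33 and 0.40.

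Daily rhythm was read next, with a JTK_CYCLE-style rank test of 24 h patterns in which, following the study, each series of 12 libraries was entered 2 times. That doubling makes p smaller without new data, so calls with the series entered once are given beside it. In hepatocytes 3 of 9 genes were rhythmic in Control (32.1% of all genes), 5 in RevDKO (33%) and 2 in RevScapTKO (25.3%). In macrophages the counts were 2 in Control (25.6%), 4 in RevDKO (34.2%) and 3 in RevScapTKO (19.6%). With the series entered once they were 1 (15.2%), 2 (13.6%) and 0 (5.74%), then 0 (5.15%), 3 (8.93%) and 0 (4.3%). A limma regression on the 24 h terms called 0 (8.34%), 3 (4.15%) and 0 (0.709%) in hepatocytes and 0 (0.055%), 0 (2.59%) and 0 (0.0877%) in macrophages. With p adjusted over all genes as well, the doubled series gave 2 (27.7%), 5 (28.2%) and 1 (16.2%), then 1 (11.2%), 4 (21.9%) and 1 (8.68%).

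Among the ligands, hepatocyte Bmp5 peaked at ZT19 in Control (exact rank test, adjusted p 0.00732, ratio of highest to lowest time mean 2.74) and in RevDKO (adjusted p 0.000805, ratio 3.48). In RevScapTKO its ratio of 1.44 was below the minimum of 1.5, with an adjusted p of 0.0402. The fitted peak-to-trough amplitudes were 1.16, 1.57 and 0.60 log2 units, and neither change was past the limma threshold (p 0.693 and 0.142). Markers of other cells varied by time in the same libraries: summed macrophage markers ran from 262 to 719 RPKTM at ZT4 and from 2374 to 3445 at ZT22 in Control, and from 515 to 865 and from 1729 to 2644 in RevDKO. Summed stellate markers ran from 477 to 808 and from 1412 to 2688 in Control, and from 947 to 1298 and from 2177 to 2455 in RevDKO. Their part in the rhythm of Bmp5 was not tested. Inhba was rhythmic in RevDKO with a peak at ZT19 (adjusted p 0.000198, ratio 3.10), and in RevScapTKO with a peak at ZT10 (adjusted p 0.00448, ratio 1.7). Its change of rhythm from RevDKO to RevScapTKO, with amplitudes of 2.21 and 0.83, gave an unadjusted p of 0.00707 and an adjusted p of 0.934. Pdgfd peaked at ZT16 in Control (adjusted p 1.22e-07, ratio 2.70), and this call remained with the series entered once (adjusted p 0.00130). Only 5 of these 12 libraries were above 5 RPKTM, and the limma regression did not call it (adjusted p 0.171). Its amplitudes were 1.21 in Control and 0.15 in RevDKO, and the limma test of that change gave an unadjusted p of 0.232 (adjusted p 0.9999). Tnfsf12 was rhythmic in RevDKO (peak ZT13, adjusted p 0.00732) and in RevScapTKO (peak ZT16, adjusted p 0.0474), the latter in only 4 of the 12 series with 1 library left out. Its change of rhythm from Control to RevDKO had an unadjusted p of 0.0122 (adjusted p 0.725).

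Receptor rhythms in macrophages were seen mainly in RevDKO. Bmpr1a peaked there at ZT19 with a ratio of 2.15 and Tnfrsf12a at ZT19 with a ratio of 5.52, both with an adjusted p of 2.96e-06 by the exact rank test and 0.00866 with the series entered once. Each of these calls remained in 12 of 12 series with 1 library left out, although only 4 of the 12 RevDKO libraries had Tnfrsf12a above 5 RPKTM. Acvr2a peaked at ZT22 (adjusted p 0.00448, ratio 1.83), a call that was lost without RevDKO at ZT22 replicate 2. In Control, Bmpr2 peaked at ZT16 (adjusted p 0.00448, ratio 1.86), and in RevScapTKO no receptor was rhythmic. Bmpr2 followed the endothelial score, as given above, and the part of endothelial RNA in its rhythm was not tested. The amplitudes of Bmpr1a were 0.25 log2 units in Control, 1.41 in RevDKO and 0.12 in RevScapTKO, and those of Tnfrsf12a 1.22, 2.25 and 0.36. The limma tests of the changes gave for Bmpr1a p 0.122 (RevDKO against Control) and 0.0576 (RevScapTKO against RevDKO), and for Tnfrsf12a 0.0689 and 0.0252, with adjusted p between 0.891 and 0.998.

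No member had a changed rhythm past the adjusted threshold in any of the 4 limma tests, where 0.203% of all genes passed for RevDKO minus Control in hepatocytes and 0% in the others. At an unadjusted p under 0.05 there was 1 member in each test, namely Tnfsf12 and Inhba in hepatocytes and Pdgfd and Tnfrsf12a in macrophages, beside 4.91%, 5.06%, 5.5% and 3.57% of all genes. A rhythm present in RevDKO and not called elsewhere is therefore not shown to differ between genotypes.

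Other rhythm calls were receptors in hepatocytes and ligands in macrophages. Hepatocyte Pdgfrb was rhythmic in RevDKO (adjusted p 0.000198 by the exact rank test, ratio 2.88, 12 of 12 series with 1 library left out) and in Control (adjusted p 0.0402), there in only 2 of 12. The stellate and macrophage marker sums were higher at ZT22 than at ZT4 in both genotypes, as given for Bmp5, and their part in this rhythm was not tested either. Tnfrsf12a was rhythmic in RevDKO hepatocytes (adjusted p 0.0107), lost without RevDKO at ZT4 replicate 1 or replicate 3. In macrophages Pdgfd peaked at ZT22 in RevDKO (ratio 4.75, adjusted p 0.000327) and in RevScapTKO (ratio 2.39, adjusted p 0.00171), Tnfsf12 at ZT13 in Control (ratio 1.55, adjusted p 0.00732), and Bmp5 and Inhba at ZT16 and ZT7 in RevScapTKO (adjusted p 0.0233 and 0.0181).

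The wider pathways were read with lists of 80 further genes of BMP, activin, PDGF and TWEAK signalling, of which 69 were tested in hepatocytes and 70 in macrophages. These lists were chosen with earlier results of these data known, so their shares are a description and not independent evidence. In hepatocytes 0 were higher and 9 lower in RevDKO than in Control (13% of those tested, beside 2.43% of all genes lower). Of 8 SMAD target genes 4 fell, among them Id1 (-0.85), Id2 (-0.61) and Id3 (-0.80 log2 units), and of 7 immediate early and other PDGF target genes 3 fell, namely Fos (-0.92), Ier2 (-0.72) and Jund (-0.65). Smurf1, an inhibitor, fell by 0.33 and Nfkbia by 0.37. The count of 9 was 2 with any of 4 libraries left out (the Control second replicates of ZT4 and of ZT10, Control ZT22 replicate 1, RevDKO ZT16 replicate 3) and from 3 to 5 with any of 8 others left out (Control ZT10 replicate 3 and both ZT16 replicates 1 and 3, and in RevDKO ZT4 replicate 2, ZT10 replicates 1 and 3 and ZT22 replicates 1 and 3).

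From RevDKO to RevScapTKO 15 of the 69 rose and 3 fell in hepatocytes (26.1%, beside 26.2% of all genes). Of 12 other ligands 3 rose: Bmp2, a BMP known from liver endothelium, by 0.52, Gdf2, which encodes BMP9, by 0.66, and Tgfb2 by 1.25 log2 units. Fst, the secreted activin antagonist follistatin, fell by 1.38 and was 1.77 below Control (SE 0.34, limma adjusted p 0.000146). Of the 8 targets 3 rose, among them Id3 (0.70) and Hamp (0.74), the iron hormone hepcidin that BMP signalling induces. Of 3 PDGF ligands Pdgfa rose by 0.70, and of the PDGF targets Egr1 (1.4) and Myc (1.32) rose. Among 9 TWEAK mediators Nfkb2 (0.87), Relb (1.1) and Traf3 (0.52), parts or regulators of the noncanonical NF-κB pathway, rose while Birc3 fell by 0.77. Cd163, a scavenger receptor of macrophages that also binds TWEAK, rose by 0.56. Macrophage, stellate and endothelial markers moved with this comparison as given above, and with the stellate score as a covariate 3 genes were called in place of 18.

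Against Control 17 of the 69 were higher and 9 lower in RevScapTKO hepatocytes (37.7%, beside 35.9% of all genes), including Pdgfra (1.13) and Pdgfc (0.82) and the BMP coreceptor Eng (0.61). In macrophages 0 of 70 passed for RevDKO minus Control by limma, with 9 at an unadjusted p under 0.05 and 3 passing without Control at ZT22 replicate 3. From RevDKO to RevScapTKO 3 rose (4.29%, beside 3%): Egr1 by 1.97 (adjusted p 0.0190), Myc by 1.32 (adjusted p 0.0267) and Nfkb2 by 0.84 (adjusted p 0.0396). Leaving out any of RevDKO at ZT4 replicate 3 or ZT10 replicate 1 or RevScapTKO at ZT4, ZT10 or ZT16 replicate 3 gave 1 call in place of 3, and leaving out RevDKO at ZT16 replicate 3 gave 7. Against Control 3 were higher, namely Smad3 (0.67), Pdgfa (1.2) and Nfkb2 (0.99), and Tnfsf13, the neighbour of Tnfsf12, was lower (-0.91; 5.71%, beside 3.76%). The medians of the listed genes were -0.07, 0.17 and 0.05 in hepatocytes and -0.17, 0.16 and -0.01 in macrophages, in the order of comparisons used above.

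The ScapKO tables were normalized apart, so their values stand alone. In the hepatocyte libraries the 12 hepatocyte markers summed to between 383973 and 1226820 RPKTM, and the 12 macrophage markers to between 541 and 3713. In the macrophage libraries the sums were 16915 to 131342 for hepatocyte and 24574 to 150099 for macrophage markers. In ScapKO hepatocytes the medians over 12 libraries were 683 RPKTM for Bmpr2, 333 for Bmpr1a, 317 for Acvr2a, 148 for Inhba, 34.3 for Tnfsf12, 32.5 for Tnfrsf12a, 30.8 for Bmp5, 20.1 for Pdgfrb and 4.74 for Pdgfd. In ScapKO macrophages they were 772, 218, 122, 15.8, 95.3, 5.24, 25.8, 18.4 and 2.79 in the same order of genes. The BMP and activin receptors led in both. Pdgfd was at 0 in 1 hepatocyte and 4 macrophage libraries.

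A single ScapKO pair of libraries, ZT22 replicate 2, stood apart in both cell types. Its hepatocyte library measured 123 RPKTM for Bmp5 and 88.6 for Pdgfrb, where the other 11 ran from 12.7 to 40.5 and from 13.4 to 41.9. Its macrophage library measured 140 for Bmp5, 137 for Pdgfrb and 114 for Inhba, where the other 11 ran from 7.15 to 35.6, 9.84 to 33.0 and 2.59 to 40.7. In the same libraries the summed stellate markers were the highest of their tables (4845 and 10094 RPKTM), the macrophage markers of the macrophage library were the lowest (24574, against 89689 to 150099), and Scap in the hepatocyte library was the highest at 1006. In ScapKO hepatocytes 1 of 9 genes was rhythmic (Pdgfd, adjusted p 0.0107 by the exact rank test; 21.9% of all genes) and in macrophages 4 (Bmp5, Inhba, Pdgfd and Pdgfrb, adjusted p 0.000587 to 0.0233; 25.8%). Without that library the counts were 2 (Pdgfd and Pdgfrb) and 2 (Bmp5 and Pdgfrb), and with the series entered once 0 (7.93%) and 1 (Bmp5, 6.4%). The regression called 0 (1.8%) and 0 (0%), and adjustment over all genes left 1 (15.9%) and 3 (14.9%).

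**Figure D5:**
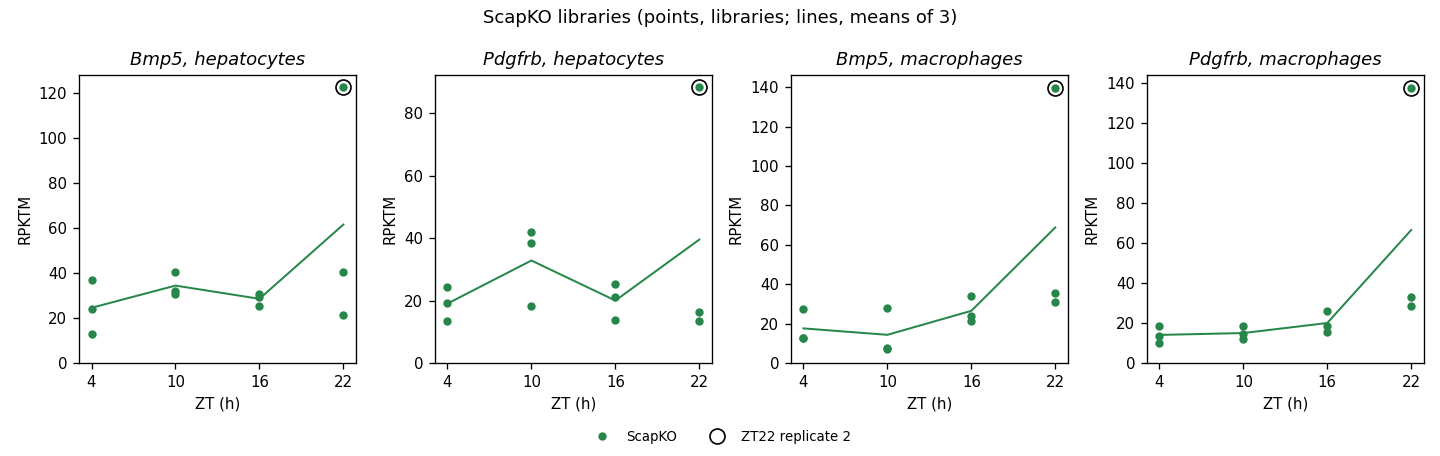
Levels of Bmp5 and Pdgfrb (RPKTM) by zeitgeber time (h) in the 12 ScapKO hepatocyte and 12 ScapKO macrophage libraries, a point for each library, with ZT22 replicate 2 ringed. The ringed libraries lie between 88.6 and 140 RPKTM, above all others, which reach 41.9 at most.

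The genes whose values followed a member most closely over the 36 libraries of a table were named as a description, since these libraries share genotype, time and cell makeup. In hepatocytes Bmp5 was followed by Ets1 (Pearson r 0.90) and Bgn (0.89), Inhba by Heatr1 (0.79) and Cdk13 (0.77), Pdgfd by Adpgk (0.68) and Fam117b (0.67), and Tnfsf12 by Zfp772 (0.59) and Rpf2 (0.55). Bgn encodes biglycan, a matrix proteoglycan. In macrophages Tnfrsf12a was followed by Ephb2 (0.77) and Hsd17b13 (0.76), Bmpr1a by D130040H23Rik and Lmbrd2 (0.67 each), Bmpr2 by Dusp3 (0.79) and Sgpp1 (0.77), Acvr2a by Dpp4 (0.79) and Chp1 (0.78), and Pdgfrb by Daam2 (0.64) and Hspg2 (0.63). Hsd17b13 encodes a lipid droplet enzyme of hepatocytes, while the r of Tnfrsf12a with the hepatocyte score over the same libraries was 0.009.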

How the data were processed

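The members and the gene lists were chosen with earlier results of these data known. Per the labels and methods, the authors prepared stranded libraries from RNA depleted of ribosomal RNA, aligned reads with STAR to mm9 and counted them over RefSeq genes with HOMER (versions and use of strand not given in the sources used here). The deposited values are RPKM multiplied by 10 (RPKTM), quantile normalized by the authors within each table, and every library of a table held the same set of values. Precision therefore rests on the spread between libraries.

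Mean levels and changed rhythms were tested with limma 3.58.1 (R 4.3.3, mean-variance trend) on log2(RPKTM + 1), which understates changes of low genes, with 1 mean per genotype and time, over the 36 libraries of a cell type. Genes needed 3 libraries above 5 RPKTM (13326 kept in hepatocytes, 13947 in macrophages), and all 9 members passed in every table. The p-values were adjusted over all genes kept (Benjamini-Hochberg), with a threshold of 0.05. A changed rhythm is a difference in the 24 h cosine and sine terms. Rhythm within a genotype used an exact JTK_CYCLE rank test written with numpy 2.4.6, scipy 1.17.1 and pandas 2.3.3 in Python 3.11.15, two-sided, with peaks in steps of 3 h, p multiplied by the 4 patterns tried, a ratio above 1.5 and 2 libraries above 5 RPKTM. Both tests were tried on simulated data. From the pathway lists up to 4 genes past the threshold were named per list and comparison, and the 2 most alike genes per member were those with the highest Pearson r. Alternatives were other pseudocounts, no filter, the longest transcript, 2 genotypes only, a replicate block, re-centred libraries, no trend, marker scores as covariates and leaving out each library. Leaving out the 3 hepatocyte-rich macrophage libraries was added after seeing the data. Promoters were not analysed here for Tnfsf12 and Pdgfrb, and the values of 1 listed gene are not reported here.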

Additional observations from a re-analysis of the deposited data

How the results depend on the processing

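Of the counts given above, 151 of 187 stayed within 1.5 times under other settings and 559 of 600 when 1 library was left out. Single members' mean differences kept their side of the threshold, with no called difference changing sign, in 550 of 567 other settings. With 1 library left out this held in 1938 of 1944. Differences that were not called could change sign within these counts. For RevDKO minus Control in hepatocytes, Tnfsf12 ran from -0.08 to 0.10 with 1 library left out. For RevScapTKO minus Control in hepatocytes, Bmpr1a ran from -0.02 to 0.01 in other settings without covariates. The 3 reversals of called differences were Pdgfrb in hepatocytes with the macrophage score (RevScapTKO minus RevDKO, -0.000431) and with the stellate score (-0.20, and -0.31 against Control). With either score 0 hepatocyte members were called in both RevScapTKO comparisons in place of 3, and pathway genes from RevDKO to RevScapTKO numbered 2 (macrophage score) and 3 (stellate score) in place of 18. For RevDKO minus Control in hepatocytes, pathway genes numbered 3 without the filter, 5 without the trend and 4 with the stellate score in place of 9. In macrophages, members called against Control numbered 0 with a pseudocount of 0.1 (Tnfrsf12a 1.36, limma adjusted p 0.0554), 0 with the stellate score, 0 without the hepatocyte-rich libraries and 3 with the hepatocyte score, in place of 1. Macrophage pathway genes from RevDKO to RevScapTKO numbered 1 with a pseudocount of 0.1 and 7 with the hepatocyte score in place of 3. The cause of these shifts was not tested.

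Rhythmic members in Control, RevDKO, RevScapTKO and ScapKO hepatocytes (3, 5, 2 and 1) numbered 1, 2, 0 and 0 with the series entered once and 0, 3, 0 and 0 by limma regression. RevScapTKO had 1 after Benjamini-Hochberg adjustment, and Control and ScapKO had 5 and 2 with no minimum ratio. In macrophages (2, 4, 3 and 4) they numbered 0, 3, 0 and 1 with the series entered once, 0 in each by limma regression, and 1 in Control and in RevScapTKO after adjustment. With 1 library left out they ranged from 2 to 4, 4 to 5, 1 to 3 and 0 to 2 in hepatocytes and 1 to 4, 3 to 5, 2 to 4 and 2 to 6 in macrophages. Leaving out 1 library gave 3 to 3 hepatocyte members for both RevScapTKO comparisons, 0 to 2 macrophage members against Control and 1 to 1 against RevDKO, 0 to 0 members for RevDKO minus Control in both cell types and in all changed-rhythm tests, 2 to 11 and 16 to 21 pathway genes in hepatocytes, and 0 to 3 and 1 to 7 in macrophages.

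Deviations of same-numbered libraries correlated between -0.14 and 0.28 in hepatocytes (median 0.05, 13 of 36 pairs above 0.1) and between -0.20 and 0.37 in macrophages (median 0.09, 15 of 36), against medians of -0.03 and -0.05 and 7 of 72 pairs in each for different numbers. Same-numbered pairs were thus above 0.1 more often than others. The titles state no pairing, so the main fit was left unpaired and a replicate block was run as an alternative. The replicate block changed no count of members, and it gave 1 macrophage pathway gene for RevDKO minus Control in place of 0 and 4 from RevDKO to RevScapTKO in place of 3. Depth is unknown, so low genes such as Pdgfd and Tnfrsf12a carry an error that the files do not show.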
